A study of Mus musculus with 8 samples.

Results

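The genes examined here encode the Golgi enzymes that build glycan chains: transferases that start, lengthen, branch, fucosylate, sialylate or sulfate sugar chains on proteins, lipids and proteoglycans. They were chosen by name, as all gene symbols that begin with Galnt, B3gnt, B4galt, B3galt, Fut, St3gal, St6gal, Gcnt or Chst followed by a digit or the letter n, so that the St6galnac genes fall under St6gal. Of 80 such symbols in the RefSeq gene table, 72 had a probe on the array, and 53 gave a sample signal well above background on both arrays of at least 1 group; these 53 genes, of 19301 genes tested, are described below. Their messenger RNA was measured in wild-type mouse small intestinal organoids, which are epithelial cultures grown in Matrigel from intestinal crypts. Organoids of 2 independently established lines were cultured for 6 days with no compound added (control), or with CHIR99021 at 3 µM, valproic acid (VPA) at 1 mM, or the pair at those doses. CHIR99021 inhibits the kinase GSK3 and thereby activates Wnt signalling, and VPA inhibits histone deacetylases. Each group had 1 array per line (n = 2), 8 arrays in all. On every array Cy5 carried the sample and Cy3 carried control RNA of the same line, so a value is the log2 ratio of Cy5 over Cy3, and the control arrays set control RNA against itself. The 2 lines are the only replicates, so every p-value rests on the spread between them, pooled over the 4 groups. The median SD between lines over genes was 0.0544 in control, and from 0.0945 to 0.127 in the treated groups. The control arrays thus lower the pooled spread for most genes. The standard errors (SE) below come from that pooled fit too.

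A mucin-type chain starts when a Galnt enzyme attaches N-acetylgalactosamine to serine or threonine. Gcnt enzymes add branches, B3gnt and B4galt or B3galt enzymes extend the chain by alternating N-acetylglucosamine and galactose, and Fut, St3gal, St6gal and Chst enzymes cap or modify it with fucose, sialic acid or sulfate. Some members work on other carriers: B4galt7 and B3galt6 on the linkage that joins glycosaminoglycans to their core proteins, B4galt6, B3galt4 and St3gal5 on glycolipids, Fut8 on N-glycans, and Chst3, Chst11, Chst12, Chst14 and Chst15 on chondroitin or dermatan chains. In the small intestine these chains coat the brush border and fill the mucus that goblet cells secrete.

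The members divided into 9 Galnt, 5 B3gnt, 7 B4galt, 4 B3galt, 7 Fut, 6 St3gal, 4 St6gal, 3 Gcnt and 8 Chst genes. The Fut group includes Fut4-ps1, whose symbol marks it as a pseudogene. All 7 B4galt, all 6 St3gal and all 3 Gcnt genes with a probe were kept, but 9 of 15 Galnt and 8 of 13 Chst genes. The 19 genes with a probe that were not kept were not well above background on both arrays of any group; they are B3galt2, B3gnt5, B3gnt8, Chst2, Chst7, Chst9, Chst10, Chst13, Fut4, Fut9, Galnt9, Galnt13, Galnt14, Galnt16, Galnt17, Galnt18, St6galnac1, St6galnac3 and St6galnac5. The 8 symbols without a matched probe, among them B3gnt6, Gcnt4 and Chst5, were not analysed here. Of the 53 members, 45 passed in all 4 groups, and B3gnt4, Chst1, Chst8 and St6galnac4 did not pass in control. A member that passed only through the group where it was high had to differ, so counts are also given below for the 45.

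Between 60.6% and 64.6% of spots were well above background on each array, no spot was saturated, and only 2 arrays per group limit the precision. The epithelial markers Epcam, Cdh1, Krt8, Krt18, Krt19 and Cldn7 were well above background on all 8 arrays, and the 3 endothelial markers Pecam1, Cdh5 and Kdr on none. Other non-epithelial lists were detected in part. Well above background on all 8 arrays were 3 of 4 immune, 2 of 3 muscle and 1 of 5 fibroblast markers with a probe. Of 11 goblet markers with a probe, 2 were called lower with CHIR99021, 7 with VPA and 10 with both, against 0.979%, 4.23% and 7.06% of all genes tested; the goblet mean, line 1 before line 2, stood at log2 ratios of 0.20 and 0.25 in control, at -0.96 and -0.95 under CHIR99021, at -1.39 and -1.12 under VPA, and at -2.65 and -2.52 under the pair. For 10 enterocyte markers the mean stood at -0.07 and -0.06 in control, at -1.73 and -2.12 under CHIR99021, at 0.25 and -0.16 under VPA, and at -2.36 and -1.74 under the pair. The enteroendocrine mean, over 4 markers, stood at -0.02 and 0.10 in control, -0.58 and -0.66 under CHIR99021, -2.33 and -1.85 under VPA, and -3.35 and -2.19 under the pair, with 0, 2 and 2 markers called lower. For 6 Paneth markers it stood at 0.43 and 0.37, 0.80 and 0.94, -0.02 and -0.64, and -1.31 and -0.81 in the same order, with 0, 1 and 2 called lower. For 3 tuft markers it stood at -0.08 and 0.03, -0.996 and -0.49, -1.65 and -0.60, and -2.24 and -1.30, with 0, 1 and 2 called lower. The 6 stem cell markers tested had means from -0.11 to 0.97, and 1 was called higher with both. The 6 epithelial markers had means of -0.18 and -0.13 in control, -0.32 and -0.26 under CHIR99021, -0.42 and -0.51 under VPA, and -0.42 and -0.57 under the pair; 1, 2 and 3 were called lower, and 1 was called higher with both. Of 5 fibroblast markers with a probe, 3 were tested; their mean was 0.06 and 0.12 in control, 0.07 and 0.09 under CHIR99021, 0.46 and 0.54 under VPA, and 0.50 and 0.62 under the pair. Among them Col1a1, well above background on 4 of the 8 arrays, was called higher with VPA (0.79, adjusted p = 0.0217) and with both (1.01, adjusted p = 0.00671), while Col1a2 gave -0.01 and -0.10 and Dcn was well above background on 0 arrays. The part of these shifts in the results below was not tested, and in such bulk RNA fewer cells of a type and less RNA per cell cannot be told apart.

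Chst12 and Chst8 were higher with VPA and St3gal4 fell with CHIR99021, though Chst8 passed the filter only through groups where it was high. The start regions of these 3 members are therefore shown. Each is 250 bases before to 50 bases after the annotated gene start, 5′ to 3′ on the gene's strand, from RefSeq (GRCm38.p6): Chst12 at chr5:140505359-140505658 (plus strand), Chst8 at chr7:34812662-34812961 (minus strand) and St3gal4 at chr9:35116815-35117114 (minus strand). Capitals mark the GC box GGGCGG, which reads CCGCCC on the other strand.
Chst12: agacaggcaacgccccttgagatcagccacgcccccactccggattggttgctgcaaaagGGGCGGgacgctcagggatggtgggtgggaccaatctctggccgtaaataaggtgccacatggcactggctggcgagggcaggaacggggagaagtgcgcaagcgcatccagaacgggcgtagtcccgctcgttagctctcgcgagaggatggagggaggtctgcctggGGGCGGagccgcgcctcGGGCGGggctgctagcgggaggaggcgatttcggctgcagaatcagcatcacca
Chst8: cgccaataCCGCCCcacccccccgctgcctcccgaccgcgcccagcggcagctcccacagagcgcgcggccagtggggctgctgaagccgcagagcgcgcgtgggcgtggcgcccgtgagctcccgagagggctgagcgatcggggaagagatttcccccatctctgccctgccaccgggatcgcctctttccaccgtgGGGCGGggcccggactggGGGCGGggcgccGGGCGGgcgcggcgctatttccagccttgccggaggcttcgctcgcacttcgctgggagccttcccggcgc
St3gal4: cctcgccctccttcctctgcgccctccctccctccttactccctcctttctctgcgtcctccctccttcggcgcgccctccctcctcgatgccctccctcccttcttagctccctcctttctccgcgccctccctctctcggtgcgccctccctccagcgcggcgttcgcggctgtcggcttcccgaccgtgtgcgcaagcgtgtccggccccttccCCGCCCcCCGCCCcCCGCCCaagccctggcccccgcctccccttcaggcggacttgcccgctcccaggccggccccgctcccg
These windows hold 3, 4 and 3 GC boxes, and 24, 38 and 31 CpG dinucleotides, at a G+C content of 65.0%, 75.0% and 74.0%. RefSeq gave 57 such windows for 40 of the members. A GC box lay in 33 of the 57 (57.9%), against 35.7% of all 32841 windows in the table. The TATA box TATAAA lay in 1.75% of member windows against 13.6% of all, the TCF/LEF motif CTTTGAT in 1.75% against 3.73%, the E-box CAGCTG in 8.77% against 16.3%, and the CDX motif TTTATG in 8.77% against 11.9%, each searched on both strands. None of these 4 motifs lay in the 3 windows shown. A match is a description of the letters, not of a bound site. The windows of the table were not limited to genes detected here, and a gene can have several. Whether the shares of the members differ from those of other detected genes was not tested.

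**Figure D1:**
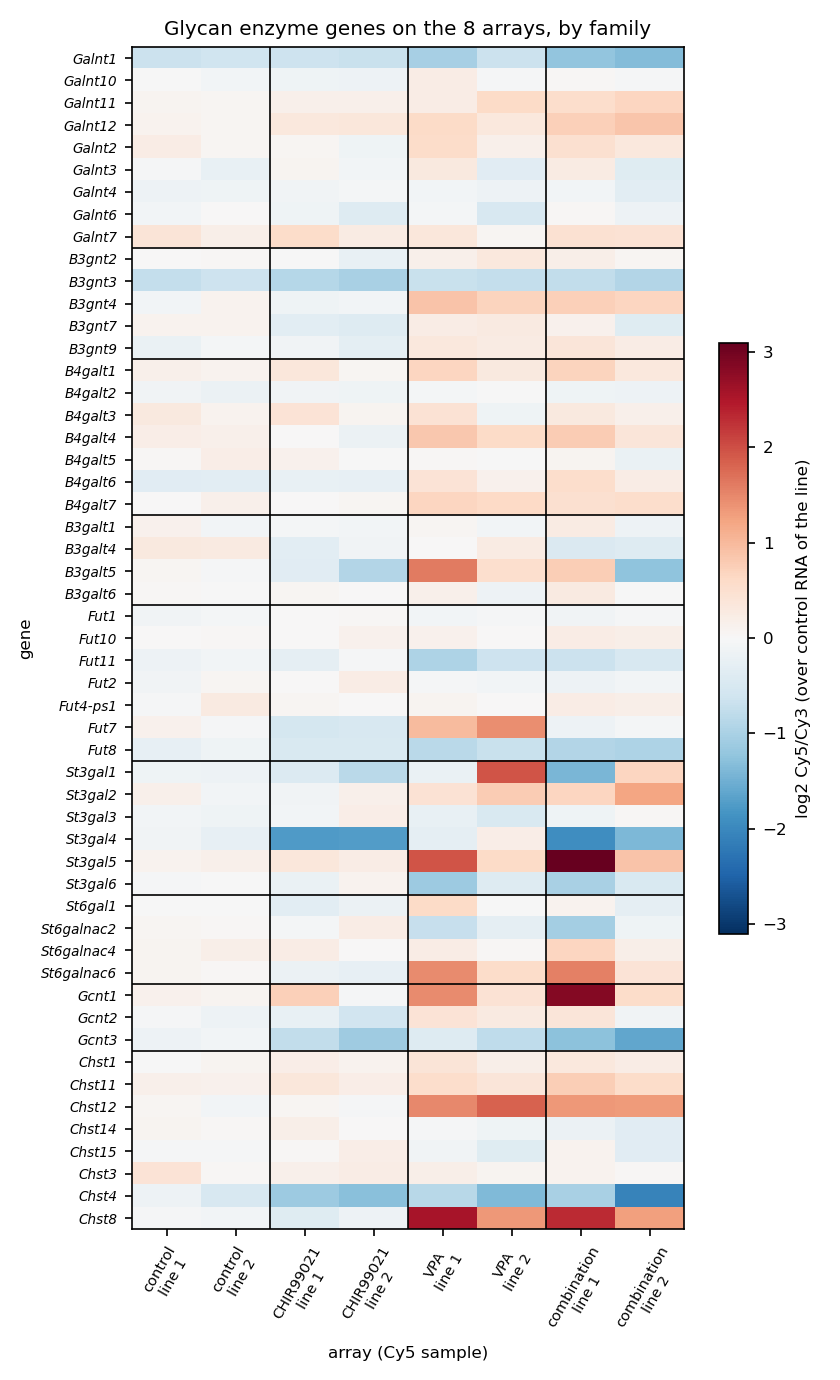
Heat map of the log2 Cy5/Cy3 ratio of the 53 genes (rows, by family) on the 8 arrays (columns, by group and organoid line). Red marks positive and blue negative ratios of Cy5 over the control RNA of the line in Cy3. Ratios of the control arrays are not subtracted here, and Galnt1, B3gnt3 and B4galt6 are negative in control too. Chst12 and Chst8 are red on all 4 arrays that had VPA, St3gal4 is blue on all 4 that had CHIR99021, and St3gal1 has opposite colours in the 2 lines with VPA and with both compounds. Chst8 passed the filter only through the groups that had VPA.

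With CHIR99021 alone 1 of the 53 genes was called: the sialyltransferase St3gal4 fell, and no member was called higher. That is 1.89% of members, against 1.09% of all genes tested (limma, Benjamini-Hochberg adjusted p under 0.05 over all genes, as in every count below). The median log2 difference of the members was -0.03, against 0.01 over all genes. The fall is set beside 0.979% of all genes lower and 0.114% higher. Among the 45 members detected in every group 1 was called, or 2.22%, against 1.33% of genes under that filter. A block on the line gave a count of 2 (3.77%, against 2.88% of all genes), with the core 2 and core 4 branching enzyme Gcnt3 added. The count was 0 without either control array or either CHIR99021 array.

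VPA alone raised 6 members and lowered 2. Higher were Chst12, Chst8, Fut7, B3gnt4, B4galt6 and B4galt7, and lower were Fut8 and Fut11. The 8 genes are 15.1% of members, against 10.8% of all genes; the rises are 11.3% against 6.57%, and the falls 3.77% against 4.23%. The median of the members was 0.11, against 0.00 over all genes. Among the 45 members well above background in every group, 5 were called, or 11.1%, against 12.1% of the genes that passed the same filter. These 5 were 3 rises and 2 falls, beside 1192 rises and 819 falls among 16678 genes. The rises of Chst8, B3gnt4 and Fut7 are not among them. Chst8 and B3gnt4 had passed the filter only through the groups that had VPA. The block on the line gave 14, or 26.4%, against 19.5% of all genes. The count was 1, Chst12, without either control array, 5 without either CHIR99021 array and 4 without the VPA array of line 1. Median centring in place of loess gave 4 rises and 0 falls, beside 863 rises and 263 falls over all genes.

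With both compounds, 10 members rose and 5 fell against control, which is 28.3% of members against 15.5% of all genes. The rises, 18.9% against 8.40%, were Galnt11, Galnt12, B3gnt4, B3gnt9, B4galt6, B4galt7, St3gal2, Chst8, Chst11 and Chst12. The falls, 9.43% against 7.06%, were Galnt1, B3galt4, Fut8, St3gal4 and Gcnt3. Of the 45 members detected in every group 13 were called, or 28.9%, against 17.3% of genes under that filter. The block gave 23, or 43.4%, against 25% of all genes. Without either CHIR99021 array the count was 9. Without control line 1 it was 2, Chst12 and Fut8, and without control line 2 it was also 2, B3gnt4 and Chst12. The split of 10 to 5 became 7 to 6 with the scanner software's own ratios, 5 to 4 with the Cy5 channel alone and 4 to 5 without either CHIR99021 array. Without the combination array of line 1 it became 4 rises and 6 falls.

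Adding VPA to CHIR99021 raised 8 members and lowered 2, which is 18.9% of members against 9.96% of all genes (15.1% against 6.17% for rises and 3.77% against 3.79% for falls). The rises were Galnt12, B3gnt4, B3gnt9, B4galt6, B4galt7, St3gal2, Chst8 and Chst12, and the falls Galnt1 and Fut8. Of the 45 members detected in every group 9 were called, or 20%, against 11.2% of genes under that filter. The block gave 19, or 35.8%, against 17.7% of all genes. The count was 2 without either control array, 1 (Chst12) without either CHIR99021 array or in a fit of these 2 groups only, and 3 without the combination array of line 1. The split of 8 to 2 became 5 to 3 when the background model was fitted on all spots, 7 to 0 with median centring and 3 to 0 with Cy5 alone. Adding CHIR99021 to VPA lowered 2 members, Fut7 and St3gal4, and raised none, which is 3.77% of members against 1.11% of all genes (1.03% lower and 0.0881% higher). Among the 45 members 1 was called, or 2.22%, against 1.35%. The count was 4 with the line as a block and 0 without either control array, either CHIR99021 array, the VPA array of line 2 or the combination array of line 1. Without the combination array of line 2 it was 1. No member was called for the interaction, and no gene among the 19301 (0%); at an unadjusted p under 0.05 in limma, 1 member, Fut7, and 512 genes (2.65%) passed.

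**Figure D2:**
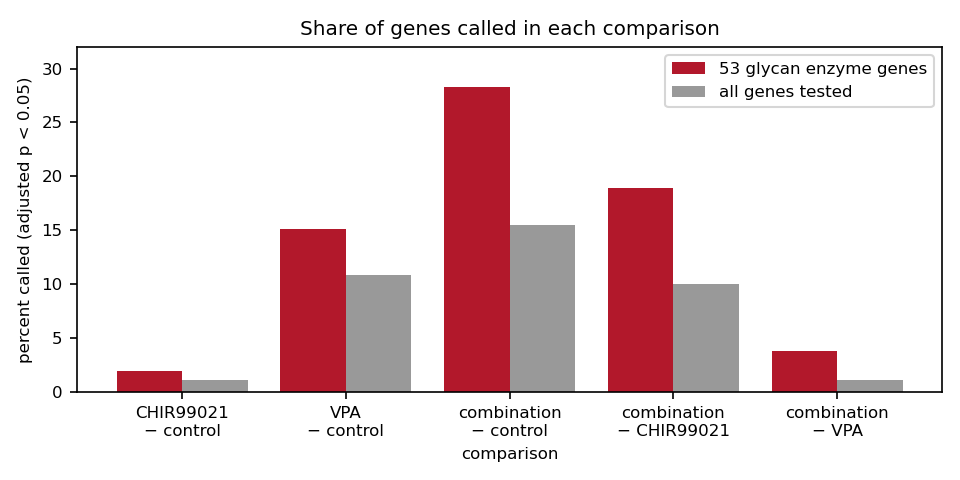
Percent of the 53 glycan enzyme genes (red) and of all 19301 genes tested (grey) called at adjusted p under 0.05 in each of 5 comparisons. The pairs of bars are 1.89 and 1.09, 15.1 and 10.8, 28.3 and 15.5, 18.9 and 9.96, and 3.77 and 1.11.

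In the 5 comparisons 36 calls were made on 17 members. In all 36 calls both lines lay on the same side of 0. A call rests on a small spread between the lines and so largely requires this, and it is not separate support for the calls. Of the 17 members, 11 have 1 probe on the array and 6 have several, whose values are given where they differ. The other 36 members were called in no comparison.

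**Figure D3:**
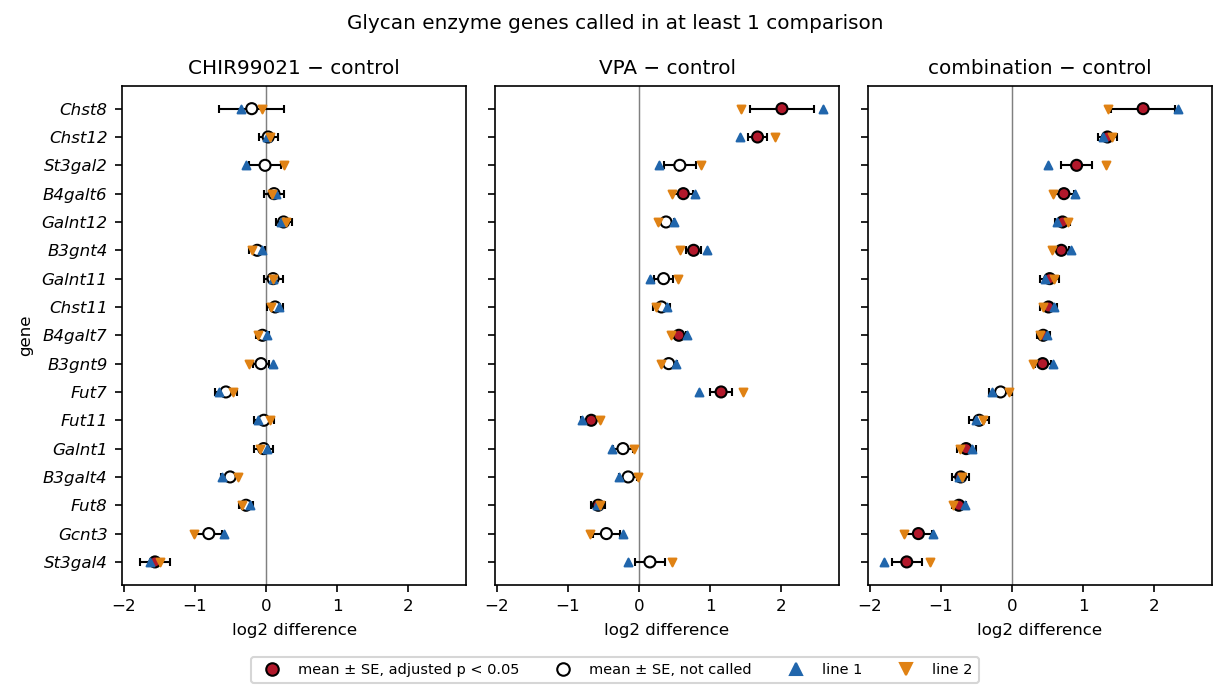
Log2 differences from control of the 17 members called in at least 1 comparison, with CHIR99021 (left), VPA (middle) and both (right). Circles and bars are the mean and SE (n = 2), filled where adjusted p is under 0.05, and triangles are the 2 lines. Chst8 and Chst12 lie highest with VPA and with both, and St3gal4 lies between -1.80 and -1.15 in both lines wherever CHIR99021 was present. Chst8 passed the filter only through the groups that had VPA.

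Among the sulfotransferases, the rise of Chst12 with VPA had the smallest adjusted p of any member in that comparison. Chst12 transfers sulfate to the N-acetylgalactosamine of chondroitin and dermatan chains. Its log2 ratio was 0.06 and -0.08 in control, 0.07 and -0.03 under CHIR99021, 1.48 and 1.83 under VPA, and 1.34 and 1.32 under both, in lines 1 and 2. All 4 arrays with VPA were above all 4 without it. The difference from control was 1.67 ± 0.13 (SE) with VPA, or 3.17-fold (adjusted p = 0.00203), and 1.34 ± 0.13 with both (adjusted p = 0.00197); against CHIR99021 it was 1.31 ± 0.13 (adjusted p = 0.00402). Under all alternatives run these 3 calls held, with differences from 0.96 to 3.48, from 0.81 to 2.94 and from 0.84 to 2.87; the highest came from the scanner software's own ratios and the lowest from the mean of the gene's probes. A second, dimmer probe of Chst12 gave only 0.26 with VPA and 0.27 with both.

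Chst8, which sulfates terminal N-acetylgalactosamine on N-glycans such as those of pituitary hormones, had a log2 ratio of -0.03 and -0.09 in control, -0.37 and -0.15 under CHIR99021, 2.57 and 1.33 under VPA, and 2.31 and 1.26 under both. It was well above background on both arrays of the VPA and combination groups, and on 1 array each of control and CHIR99021. It passed the filter only through groups where it was high and so had to differ, and its differences are given as a description. They were 2.01 ± 0.45 with VPA (adjusted p = 0.0386), 1.84 ± 0.45 with both (adjusted p = 0.0396) and 2.05 ± 0.45 against CHIR99021 (adjusted p = 0.0386). Line 1 moved by 2.59 and line 2 by 1.43 with VPA. Over the alternatives the VPA difference ran from 1.39 to 4.50 and that with both from 1.32 to 4.39, each highest with the scanner software's own ratios. The VPA call was lost without either control array, either CHIR99021 array or the VPA array of line 1, with adjusted p between 0.0744 and 0.207.

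Chst11, another chondroitin sulfotransferase, had ratios of 0.16 and 0.13 in control, 0.34 and 0.20 under CHIR99021, 0.55 and 0.37 under VPA, and 0.76 and 0.56 under both. Its difference with both compounds, 0.51 ± 0.11, was called (adjusted p = 0.0283), and its other 2 probes gave 0.68 and 1.51. The call held in 11 of 19 alternatives, with differences from 0.42 to 0.90. It was lost in 5 fits that left out an array, where the difference lay between 0.417 and 0.525. Under the block the differences of Chst11 with VPA (0.32, adjusted p = 0.0491) and against CHIR99021 (0.39, adjusted p = 0.0285) were called too. Chst4, a mucin-type N-acetylglucosamine sulfotransferase, was low on every treated array: -0.17 and -0.49 in control, -1.12 and -1.30 under CHIR99021, -0.86 and -1.36 under VPA, and -1.002 and -2.067 under both. Its differences from control, -0.88 ± 0.35, -0.79 ± 0.35 and -1.21 ± 0.35, were not called, with the smallest adjusted p at 0.0619; with the block those for VPA and for both were (adjusted p = 0.0409 and 0.00783). Chst15, which adds a second sulfate to chondroitin, lay between -0.37 and 0.20 on all arrays and was not called, nor were Chst1, Chst3 and Chst14.

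St3gal4, which adds sialic acid to the galactose ends of glycoprotein and glycolipid chains, fell in all 3 comparisons that turn on CHIR99021. Its ratio was -0.12 and -0.25 in control, -1.75 and -1.74 under CHIR99021, -0.28 and 0.21 under VPA, and -1.92 and -1.40 under both. The 4 arrays with CHIR99021 did not overlap the 4 without it. St3gal4 differed from control by -1.56 ± 0.21 with CHIR99021, or 2.95-fold lower (adjusted p = 0.0322), by -1.48 ± 0.21 with both (adjusted p = 0.0068), and the combination differed from VPA by -1.63 ± 0.21 (adjusted p = 0.0277). A second probe of St3gal4 gave -1.55, -1.45 and -1.46. The CHIR99021 call held in 10 of 19 alternatives; it was lost without either control array or either CHIR99021 array (adjusted p from 0.177 to 0.347), and with the background model fitted on all spots the difference was -1.20 (adjusted p = 0.367). On these arrays the enterocyte and goblet marker means given above were also lower, and their part in the fall of St3gal4 was not tested.

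St3gal2, which sialylates core 1 chains and gangliosides, had ratios of 0.17 and -0.09 in control, -0.11 and 0.17 under CHIR99021, 0.45 and 0.79 under VPA, and 0.67 and 1.23 under both. It was called with both compounds (0.91 ± 0.22, adjusted p = 0.0386) and against CHIR99021 (0.92 ± 0.22, adjusted p = 0.0481). A second probe of St3gal2 that was not above background gave 0.06. The call against control was lost without either control array, either CHIR99021 array or the combination array of line 2 (adjusted p from 0.0623 to 0.222). St3gal6, which had no call, gave -0.74 ± 0.27 with VPA and -0.72 ± 0.27 with both, and with the block both were called (adjusted p = 0.026 and 0.0222). St3gal3 was called in no comparison.

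Of the St6gal group, none was called. St6gal1, which caps N-glycans of secreted and membrane proteins with sialic acid, lay between -0.32 and 0.10 except for 0.60 on the VPA array of line 1. St6galnac6, a sialyltransferase of gangliosides and related chains, had ratios of 0.09 and 0.03 in control, -0.17 and -0.26 under CHIR99021, 1.46 and 0.56 under VPA, and 1.57 and 0.42 under both. The combination of St6galnac6 exceeded CHIR99021 by 1.21 ± 0.41 (adjusted p = 0.121, and 0.0316 with the block). Its second probe gave 0.18 there.

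Fut7 and Fut8 moved in opposite directions with VPA. Fut7, which makes sialyl Lewis x structures, had ratios of 0.13 and -0.03 in control, -0.54 and -0.49 under CHIR99021, 0.98 and 1.43 under VPA, and -0.16 and -0.06 under both. Both VPA arrays were above the other 6, and both CHIR99021 arrays were below the other 6. It rose by 1.15 ± 0.16 with VPA (2.22-fold, adjusted p = 0.00877), and the combination differed from VPA by -1.31 ± 0.16 (adjusted p = 0.0242). Fut7 was well above background on 1 of the 2 CHIR99021 arrays and on all others. Fut7 with both differed from control by -0.16, with no call, and with CHIR99021 alone by -0.57 ± 0.16 (adjusted p = 0.193); its interaction was -0.75 ± 0.22 (unadjusted p = 0.0125, adjusted p = 1). The VPA call was lost without either control array (adjusted p = 0.0783 and 0.0946), and the call against VPA in 7 of the 8 fits that left out an array (adjusted p from 0.0544 to 0.102).

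Fut8, which adds the core fucose of N-glycans, had ratios of -0.25 and -0.13 in control, -0.47 and -0.47 under CHIR99021, -0.84 and -0.68 under VPA, and -0.90 and -0.97 under both. The control arrays were the highest and the combination arrays the lowest. It fell by 0.57 ± 0.10 on the log2 scale with VPA (adjusted p = 0.0168) and by 0.75 ± 0.10 with both (adjusted p = 0.00476), and the combination was lower than CHIR99021 by a difference of -0.46 ± 0.10 (adjusted p = 0.0321). A second probe of Fut8 gave -0.34, -0.57 and -0.25. Fut11, a member of the fucosyltransferase family with less certain substrates, had ratios of -0.15 and -0.09 in control, -0.27 and -0.03 under CHIR99021, -0.95 and -0.64 under VPA, and -0.66 and -0.50 under both. It fell by 0.67 ± 0.14 with VPA (adjusted p = 0.0309); with both, -0.46 ± 0.14 was not called (adjusted p = 0.0727); with the block it was (adjusted p = 0.0151). Fut1 and Fut2, which make the H antigen, lay between -0.15 and 0.23 on all 8 arrays, with no call. The Fut11 call was lost without either control array, either CHIR99021 array or the VPA array of line 1, and the Fut8 call with VPA without either control array or the VPA array of line 1.

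Gcnt3, the mucin-type enzyme that makes core 2 and core 4 branches, was below control on all 6 treated arrays. Its ratio was -0.17 and -0.10 in control, -0.76 and -1.11 under CHIR99021, -0.39 and -0.78 under VPA, and -1.28 and -1.61 under both. The difference with both, -1.32 ± 0.19 or 2.49-fold lower, was called (adjusted p = 0.00672), and was lost without either control array (adjusted p = 0.0625 and 0.0668). With CHIR99021 alone it was -0.81 ± 0.19 (adjusted p = 0.135) and with VPA -0.46 ± 0.19 (adjusted p = 0.186). With the line as a block Gcnt3 was called with CHIR99021 (adjusted p = 0.0312), for both against CHIR99021 (-0.51, adjusted p = 0.0424) and for both against VPA (-0.86, adjusted p = 0.0272). The goblet marker mean given above was lowest on the same combination arrays, and its part in the fall of Gcnt3 was not tested. The core 2 enzyme Gcnt1 differed between the lines and is described below, and Gcnt2, the branching enzyme of the I antigen, had no call, though with the block VPA gave 0.44 (adjusted p = 0.0429).

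Among the enzymes that lengthen chains, 2 of 5 B3gnt and 2 of 7 B4galt genes were called higher with both compounds. Of the 4 B3galt genes 1, B3galt4, was called lower. These counts stand beside 8.40% of all genes higher and 7.06% lower. B3gnt4, an N-acetylglucosaminyltransferase of poly-lactosamine chains, had ratios of -0.08 and 0.12 in control, -0.13 and -0.08 under CHIR99021, 0.88 and 0.70 under VPA, and 0.75 and 0.68 under both. The 4 arrays with VPA did not overlap the others. It rose by 0.77 ± 0.11 with VPA (adjusted p = 0.0105) and by 0.69 ± 0.11 with both (adjusted p = 0.00916). It was not well above background on either CHIR99021 array and on 1 of the control arrays. Against CHIR99021 the combination gave 0.82 ± 0.11 (adjusted p = 0.00888), a difference from a group with no array well above background, so no fold is given; like Chst8, it passed the filter only through groups where it was high. A second probe of B3gnt4, not above background, gave -0.10 with VPA, and the VPA call was lost without either control array (adjusted p = 0.0643 and 0.109). B3gnt9 had ratios of -0.20 and -0.07 in control, -0.11 and -0.30 under CHIR99021, 0.32 and 0.24 under VPA, and 0.37 and 0.22 under both. The difference of B3gnt9 with both was 0.43 ± 0.11 (adjusted p = 0.0455), lost in each of the 8 fits that left out an array (adjusted p from 0.0564 to 0.264). B3gnt3, which extends core 1 chains, lay between -1.02 and -0.63 on all arrays, control included, and had no call. B3gnt7, an enzyme of keratan sulfate chains, gave -0.48 ± 0.16 with CHIR99021 (adjusted p = 0.275).

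B4galt6, which makes lactosylceramide, had ratios of -0.35 and -0.34 in control, -0.22 and -0.25 under CHIR99021, 0.43 and 0.12 under VPA, and 0.54 and 0.24 under both. Every VPA-treated array was above every other array. It rose by 0.62 ± 0.14 with VPA (adjusted p = 0.0394) and 0.73 ± 0.14 with both (adjusted p = 0.0179). B4galt7, which adds the first galactose of the proteoglycan linkage, had ratios of 0.00 and 0.17 in control, 0.01 and 0.06 under CHIR99021, 0.67 and 0.62 under VPA, and 0.50 and 0.55 under both. Again the 4 arrays with VPA did not overlap the others. It rose by 0.56 ± 0.09 with VPA (adjusted p = 0.0167) and by 0.44 ± 0.09 with both (adjusted p = 0.0247). The VPA calls were lost without either control array for both genes, with adjusted p up to 0.222 for B4galt6 and 0.148 for B4galt7. B4galt4 gave 0.53 ± 0.16 with VPA, called with the block (adjusted p = 0.0183). B4galt1, the main galactosyltransferase of N-glycans, gave 0.35 with VPA and 0.38 with both, of which the second was called with the block (adjusted p = 0.0417); its other 2 probes gave 0.08 and 0.41 with both.

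B3galt4, the enzyme that makes the ganglioside GM1, had ratios of 0.29 and 0.29 in control, -0.33 and -0.10 under CHIR99021, 0.01 and 0.27 under VPA, and -0.45 and -0.41 under both. The 4 arrays with CHIR99021 were below the 4 without it. The difference with both was -0.72 ± 0.12 (adjusted p = 0.0113), lost without either control array (adjusted p = 0.09 and 0.0961). With CHIR99021 alone it was -0.51 ± 0.12 (adjusted p = 0.144), and the combination differed from VPA by -0.57 ± 0.12 (adjusted p = 0.106, and 0.0408 with the block). B3galt1, B3galt5 and B3galt6 had no call.

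Of the 9 Galnt enzymes that start mucin-type chains, none was called with a single compound, and with both 2 rose and 1 fell. Galnt12 had ratios of 0.11 and 0.07 in control, 0.32 and 0.35 under CHIR99021, 0.60 and 0.34 under VPA, and 0.74 and 0.86 under both. The combination arrays were the highest and the control arrays the lowest. Galnt12 rose by 0.71 ± 0.11 with both (adjusted p = 0.00913), lost without either control array (adjusted p = 0.0786 and 0.0834). Galnt11 had ratios of 0.07 and 0.06 in control, 0.17 and 0.16 under CHIR99021, 0.22 and 0.60 under VPA, and 0.54 and 0.65 under both. It rose by 0.53 ± 0.13 with both (adjusted p = 0.0427), lost in 6 of the 8 fits that left out an array. Galnt1, a broadly expressed enzyme of this family, had ratios of -0.65 and -0.61 in control, -0.64 and -0.69 under CHIR99021, -1.04 and -0.67 under VPA, and -1.21 and -1.34 under both. The combination arrays were the lowest. The difference of Galnt1 with both was -0.65 ± 0.13 (adjusted p = 0.0225), and against CHIR99021 it was -0.61 ± 0.13 (adjusted p = 0.0374). The non-zero control ratios of Galnt1, B3gnt3 and B4galt6 were alike in both lines and were subtracted in every difference given. Galnt3 and Galnt7, both known in mucin-secreting epithelium, were not called: Galnt3 lay between -0.37 and 0.31 and Galnt7 between 0.05 and 0.56. The Galnt1 call with both compounds was lost without either control array or either combination array (adjusted p from 0.0551 to 0.145).

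The response of the 53 genes to VPA without and with CHIR99021 can be set side by side, since the difference of VPA from control and that of the combination from CHIR99021 share no array, though both come from the same 2 lines. Across the 53 genes, which are not independent replicates, the 2 sets of differences had a Pearson r of 0.889 and a Spearman rho of 0.902, against an r of 0.866 across all 19301 genes, and 43 members had the same sign. For CHIR99021 without and with VPA, r was 0.82 and rho 0.713 over members, against an r of 0.753 over all genes, and 35 members had the same sign. Chst12 gave 1.67 without CHIR99021 and 1.31 with it, Chst8 2.01 and 2.05, and Fut8 -0.57 and -0.46. Chst8, B3gnt4 and Chst1 passed the filter only through groups that had VPA, so that filter partly fixed their rises with VPA. The r over members includes these genes, and it was not computed for members detected in every group alone. Fut7 lay farther from equality, at 1.15 and 0.41. St3gal4 gave -1.56 without VPA and -1.63 with it, and Gcnt3 -0.81 and -0.86.

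**Figure D4:**
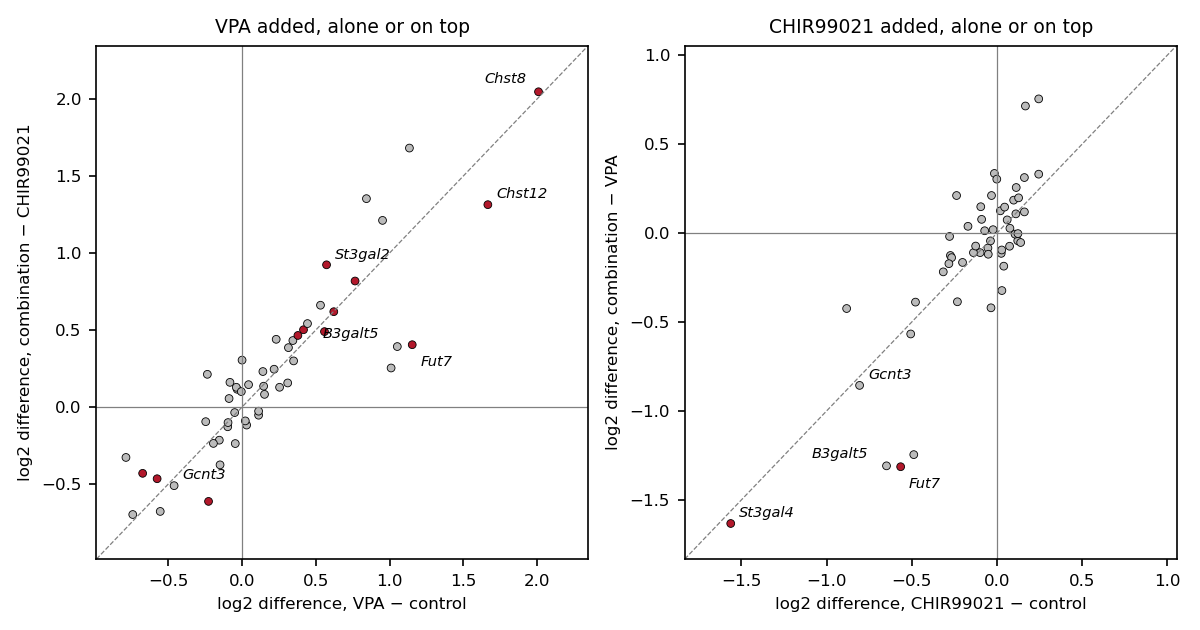
Log2 differences of the 53 genes when VPA was added alone (left, x axis) or to CHIR99021 (left, y axis), and when CHIR99021 was added alone (right, x axis) or to VPA (right, y axis). Red points were called in at least 1 of the 2 comparisons and the dashed line marks equality. Most points follow the line, and Fut7 lies below it in both panels (1.15 and 0.41 at left, -0.57 and -1.31 at right). Chst8, B3gnt4 and Chst1 passed the filter only through groups that had VPA.

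In 6 members, chosen here after their values were seen, the 2 lines differed in their change by over 1 on the log2 scale with VPA or with both compounds. With CHIR99021 alone no member did. St3gal1, which sialylates core 1 O-glycans, moved from control by -0.09 in line 1 and 2.11 in line 2 with VPA, and by -1.29 and 0.82 with both, so that its directions were opposite with both compounds. B3galt5, which makes type 1 chains in gut epithelium, moved by 0.70 and -1.21 with both; its ratios with VPA were 1.61 and 0.52. St3gal5, the GM3 synthase, rose in both lines but unequally, by 1.83 and 0.44 with VPA and by 2.97 and 0.73 with both. Its mean difference with both was 1.85 ± 0.71 (adjusted p = 0.139, and 0.0438 with the block). Gcnt1 moved by 2.72 and 0.48 with both (mean 1.60, adjusted p = 0.0465 with the block); its other probes were not above background and gave 0.06 and 0.32. St6galnac6 moved by 1.48 and 0.39 with both, and Chst8 by 2.59 and 1.43 with VPA. The median gap between lines over the members was 0.158 with CHIR99021, 0.267 with VPA and 0.266 with both, against 0.138, 0.184 and 0.190 over all genes. Anything else shared by the arrays of a line, such as a slide, cannot be told apart from the line.

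**Figure D5:**
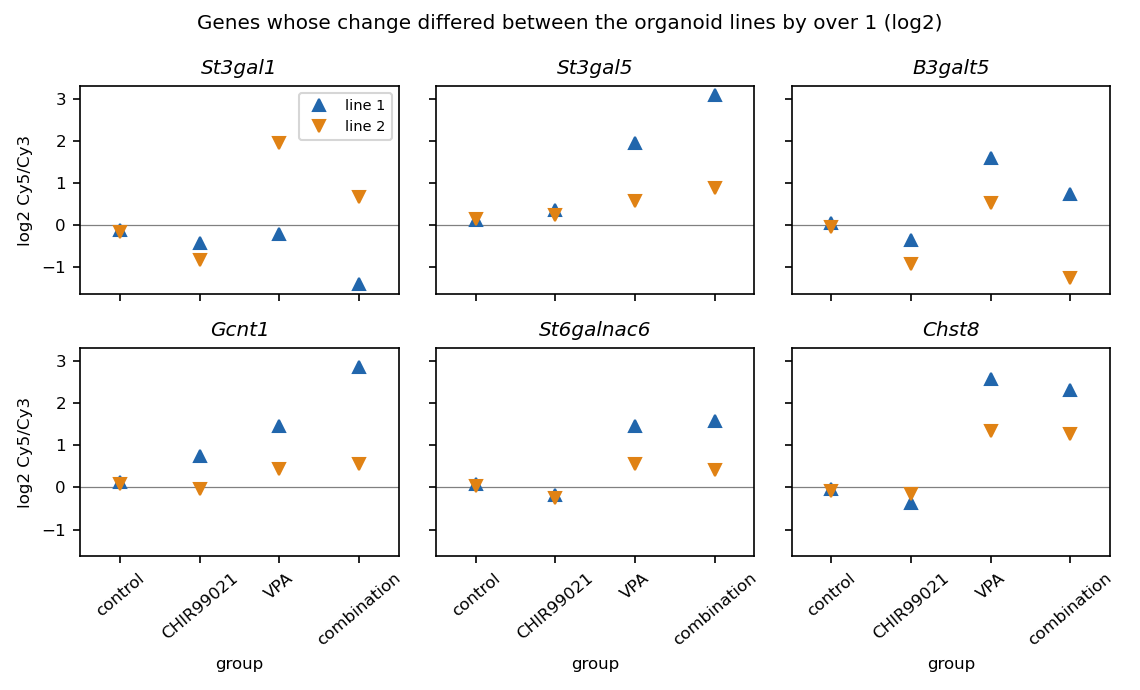
Log2 Cy5/Cy3 ratios of the 6 members whose change differed between organoid lines by over 1 in a treated group, by group, with upward triangles for line 1 and downward ones for line 2. The lines lie close in control and apart with VPA and with both compounds; for St3gal1 line 2 is the higher and for the other 5 line 1 is the higher in the VPA and combination groups.

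Genes that work with these enzymes were counted by list, and each count is set beside the shares of all genes tested, which were 1.09% called with CHIR99021, 6.57% higher and 4.23% lower with VPA, and 8.40% higher and 7.06% lower with both. The chondroitin chain list had 6 genes tested, with median differences of 0.19 for CHIR99021, 0.75 for VPA and 0.82 for both; all 6 were above 0 with VPA and with both. Of these, 0 were called with CHIR99021, 2 rose with VPA (6.57% of all genes) and 3 with both (8.40%). Chpf, a chondroitin polymerizing factor, rose by 1.11 ± 0.11 with VPA (adjusted p = 0.00356) and 1.14 ± 0.11 with both (adjusted p = 0.00187). Dsel, related to the dermatan sulfate epimerase, rose by 1.26 ± 0.31 (adjusted p = 0.0484) and 1.58 ± 0.31 (adjusted p = 0.0183). Chsy1, a chondroitin synthase, rose by 0.91 ± 0.21 with both (adjusted p = 0.0329). On the arrays where Chst12, Chst11, Chpf and Dsel were higher the fibroblast marker mean given above was higher too, and its part in these rises was not tested. That mean covers 3 tested markers, of which 2 were above 0 with VPA and with both. Col1a1, the 1 called, was not well above background on every array. A marker that passed the filter only where it was high had to differ.

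Of 28 genes of sugar nucleotide and PAPS synthesis, 0 were called with CHIR99021, 4 rose and 3 fell with VPA (10.8% of all genes called), and 5 rose and 3 fell with both (15.5%); the medians were -0.15, 0.21 and 0.03. The 2 phosphomannomutases went apart. Pmm1 rose by 1.66 ± 0.11 with VPA (adjusted p = 0.000993) and 1.73 ± 0.11 with both. Pmm2, by contrast, gave -0.66 ± 0.12 (adjusted p = 0.0212) and -0.94 ± 0.12. Gne, the first enzyme of sialic acid synthesis, fell by 0.93 ± 0.10 with VPA and 1.04 ± 0.10 with both (adjusted p = 0.00449 and 0.00193), and Galt, of galactose metabolism, fell by 0.95 ± 0.10 with VPA (adjusted p = 0.00411). Of 11 Golgi transporters of these donors, 1 rose with VPA, and 2 rose and 2 fell with both, against the same shares. Slc35a1, which carries CMP-sialic acid, rose by 0.94 ± 0.20 with both (adjusted p = 0.0237), and Slc35a3, which carries UDP-N-acetylglucosamine, fell by 1.06 ± 0.13 (adjusted p = 0.0037).

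Of 14 N-glycan processing genes, 1 rose with VPA (6.57% of all genes), and 1 rose and 2 fell with both (8.40% and 7.06%). Man2a2, a Golgi mannosidase, rose by 0.54 ± 0.11 and 0.59 ± 0.11 (adjusted p = 0.029 and 0.0153), and Mgat3, which adds the bisecting N-acetylglucosamine, fell by 0.72 ± 0.13 with both (adjusted p = 0.0131). Of 14 further O-glycan and capping enzymes tested, 2 fell with VPA and 1 with both, against 4.23% and 7.06% of all genes. B4galnt1, an enzyme of complex gangliosides, fell by 0.79 ± 0.10 with VPA and 1.23 ± 0.10 with both (adjusted p = 0.0068 and 0.00123). The list of mucins and mucus scaffold proteins had 9 genes tested, with 0 called with CHIR99021. With VPA 1 rose and 4 fell (6.57% and 4.23% of all genes), and with both 1 rose and 5 fell (8.40% and 7.06%). The falls with both were Agr2, Clca1, Fcgbp, Tff3 and Zg16. The mucin genes Muc1, Muc13 and Muc20 gave 0.145, 0.07 and -0.106 with both and were not called. Muc2 had no matched probe. The membrane mucin Muc4, named after its values were seen, rose by 0.68 ± 0.14 with VPA (adjusted p = 0.0279), and the goblet cell products Clca1, Fcgbp and Tff3 gave -5.77 ± 0.64, -2.39 ± 0.17 and -1.97 ± 0.15 with both (adjusted p = 0.003, 0.000825 and 0.000963).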

How the data were processed

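Per the labels, total RNA (500 ng) of 2 organoid lines was labelled in 2 colours for 8 whole mouse genome arrays (Agilent), with the sample in Cy5, control RNA of the same line in Cy3 and no dye swap. The deposited intensity values are median spot and local background brightness per dye; per the file headers, the scanner software was Agilent Feature Extraction 10.5.1.1. The deposited log10 ratios are that software's ratios of Cy5 to Cy3 after its background and dye corrections, per the file headers. The authors' deposited table of log2 values for 19228 spots equalled these ratios within 5e-10; the medians of its arrays were 0.0039, 0.017, -0.028 and -0.008 in line 1 and 0.0057, 0.036, -0.024 and -0.0027 in line 2 (control, CHIR99021, VPA, both). Further steps of the authors are not given in the sources used here.

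From the intensities, background was corrected with limma 3.58.1 (R 4.3.3), normexp with offset 50, and ratios were normalised by loess with control spots at weight 0. Spots whose feature was marked non-uniform or a population outlier, or whose background was marked non-uniform, were left out, also when the normexp model was fitted. That choice goes back to earlier work on these data, made once a fit that used every spot had found no gene for CHIR99021. Of 41174 probes 27479 matched a symbol by RefSeq accession (GRCm38.p6, names only; the headers name build mm9). The brightest probe stands for a gene, and 49 genes without a value on some array were dropped. The 4 groups were fitted together with lmFit and eBayes (4 residual and 2.68 prior degrees of freedom), with Benjamini-Hochberg adjustment over 19301 genes at 0.05; the fit was also tested on simulated data. Per the labels the replicate number stands for the organoid line, and arrays of a line deviated together, with r over genes of 0.122 to 0.755 in 6 group pairs. The fit with the line as a block, other background, normalisation, filter and probe settings, and leaving out each array were alternatives. Members, partner lists and markers were chosen with earlier results of these data known. Genes named are those called in any comparison, the smallest adjusted p of each family, 22 fixed genes (17 of them members) and up to 4 genes of each partner list, of which some were left out; other genes are named as chosen after their values were seen, or to account for every member.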

Additional observations from a re-analysis of the deposited data

How the results depend on the processing

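No called difference of a gene named here changed sign under any alternative run. Counts of members called are given in the order CHIR99021, VPA and both against control, both against CHIR99021 and both against VPA, and were 1, 8, 15, 10 and 2. With the line as a replicate block they were 2, 14, 23, 19 and 4, beside 2.88%, 19.5%, 25%, 17.7% and 3.18% of all genes called. The block added 26 calls, ended 0 and changed no other call. With the Cy5 channel alone they were 0, 5, 9, 3 and 0, beside 0%, 3.41%, 9.02%, 4.18% and 0.0104% of all genes. In fits of the compared groups only, the counts were 6 for CHIR99021, 5 for VPA, 1 against CHIR99021 and 0 against VPA. The shares of all genes called there were 5.66%, 8.14%, 1.51% and 0%. Treated ratios tested against 0, which leaves out the control arrays, gave 9, 23 and 30. These are 17%, 43.4% and 56.6% of members, against 22.4%, 36.4% and 40.4% of all genes. With the background model on all spots, the counts for CHIR99021 and against VPA were both 0, beside 0% and 0.145% of all genes. The scanner software's ratios gave 0 for CHIR99021, 5 against CHIR99021 and 0 against VPA, beside 0.187%, 6.93% and 0.176% of all genes. Median centring gave 0 for CHIR99021, 4 for VPA and 1 against VPA, beside 0.834%, 5.83% and 0.772% of all genes. A variance trend with robust fitting gave 0 for CHIR99021, beside 0.44% of all genes. Keeping only genes well above background in all 4 groups, an alternative chosen after seeing the data, gave 5 for VPA and 1 against VPA. The shares of all genes under that filter were 12.1% and 1.35%. The other counts moved by less than 1.5 times, and the interaction count stayed 0. Leaving out 1 array at a time gave 0 to 1 for CHIR99021, 1 to 9 for VPA, 2 to 15 for both, 1 to 11 against CHIR99021 and 0 to 2 against VPA. The number of all genes called moved under these alternatives too, and the cause of these moves was not tested. In a group left with 1 array, that array is assumed to vary like the other groups. Signal over background limits B3gnt4, Chst1, Chst8 and St6galnac4 in control, and the 19 dim genes throughout.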
